A study of Mus musculus with 4 samples.

Results

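The tumour suppressor gene Trp53, which encodes p53, and 9 of its target genes for growth arrest, apoptosis and stress defence were followed in primary mouse oligodendroglial cultures (1° OGCs) with and without the zinc finger protein Zfp276. The genes are Trp53, Mdm2, Cdkn1a, Ccng1, Bax, Bbc3, Phlda3, Sesn2, Gadd45a and Zmat3. They were taken by symbol, 10 of 53465 genes in the count data, and all 10 had enough counts to be tested. The cultures came from forebrain of mice at P2 to P4 and were differentiated for 3 days (3ddiff) after shake-off and depletion of microglia. Ctrl cells had the genotype Zfp276 flox/flox without Cre, and Zfp276cko cells carried Zfp276 flox/flox together with the Sox10::Cre transgene. Exons 2 to 5 of Zfp276 lie between loxP sites in both genotypes, and Cre is expressed from Sox10 regulatory sequences in cells of the oligodendroglial lineage. A Rosa26 stopflox tdTomato allele had been crossed into the mice for such cultures on a mixed C3H and C57Bl/6J background, and since ctrl cells lacked Cre, effects of Cre and of the deletion cannot be told apart. RNA-Seq was performed on 2 preparations per genotype, each from 3 mice, so the p-values below describe the spread between preparations.

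The p53 protein is kept low in unstressed cells because Mdm2, a ubiquitin ligase and itself a p53 target, marks it for degradation. After DNA damage or other stress, kinases release p53 from Mdm2, and p53 activates genes that stop the cell cycle, repair DNA or start apoptosis. Because p53 is controlled mainly as a protein, the mRNA level of Trp53 is a poor guide to its activity, and the mRNA levels of its targets are often read instead. Oligodendrocyte precursor cells leave the cell cycle before they mature, and the Cdk inhibitor p21, encoded by Cdkn1a, has been linked to their differentiation.

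After adjustment, no member of the group and none of the 15766 genes tested passed the test of a difference between the genotypes. The level of Trp53 itself lay above the ctrl level in each Zfp276cko library, at 124% of ctrl on average, without passing the test after adjustment. Mdm2, Bax, Bbc3 and Phlda3 had the same order of libraries with smaller or less certain differences. Cdkn1a, Ccng1, Gadd45a, Sesn2 and Zmat3 overlapped between the genotypes, with ctrl preparations that lay further apart than the Zfp276cko preparations.

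p53 binds DNA as a tetramer at a pair of similar 10-letter sequences, the p53 half-site consensus. The promoter windows of RefSeq on GRCm38.p6, from 250 bases before to 50 bases after a gene's start, were searched for it to show what lies before the starts of these genes. There were 12 windows for 9 members and none for Zmat3. The consensus is its own reverse complement, so that a search of the printed strand covers both strands. It occurred in 6 of the 12 windows, in Trp53, Mdm2, Cdkn1a, Ccng1, Bax and Gadd45a, and in 8.36% of 32851 windows of all genes. The stretches around these matches are shown 5′ to 3′ on the strand of the gene with the half-site in capitals, and for Cdkn1a the pair is shown.
Trp53: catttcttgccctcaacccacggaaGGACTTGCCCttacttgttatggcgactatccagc
Mdm2: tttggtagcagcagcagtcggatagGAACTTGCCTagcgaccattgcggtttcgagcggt
Cdkn1a: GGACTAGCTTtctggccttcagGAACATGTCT
Ccng1: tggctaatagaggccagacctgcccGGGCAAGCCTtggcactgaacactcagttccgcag
Bax: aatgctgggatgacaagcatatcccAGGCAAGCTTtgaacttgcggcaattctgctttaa
Gadd45a: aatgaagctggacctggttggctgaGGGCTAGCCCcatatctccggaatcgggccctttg

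The stretch of Trp53 is chr11:69580259-69580318 on the plus strand, and that of Cdkn1a is chr17:29090906-29090937 on the plus strand. Those on the minus strand are chr10:117710910-117710969 for Mdm2, chr11:40755437-40755496 for Ccng1, chr7:45467065-45467124 for Bax and chr6:67037413-67037472 for Gadd45a. A complete site of 2 half-sites with at most 13 bases between them was found in the upstream window of Cdkn1a alone among the members, and in 0.0731% of all windows. Its half-sites are 12 bases apart and begin 2863 bases before the downstream start of Cdkn1a. Directly after GAACATGTCT the strand goes on with tgacatgttc, which misses the consensus at 1 letter. The 2 stretches thus form a pair without spacer and with 1 mismatch, and which pair p53 binds was not tested. With 1 mismatch allowed, 3 member windows held a complete site, those of Cdkn1a, Ccng1 and Bax, against 1.09% of all windows. Matches describe these letters only, and p53 binding was not measured in these cells. The search was chosen after the values were seen.

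Counted reads per library were between 21068322 and 26599809. The gene targeted by the deletion, Zfp276, had 1648 and 2230 normalized counts in the ctrl libraries and 490 and 503 in the Zfp276cko libraries, 25.6% of ctrl (log2 fold change −1.97 ± 0.18 SE, adjusted p = 0.0962 in edgeR's quasi-likelihood test). The labelled lineage was present: the 10 oligodendrocyte markers summed to 236532 and 290219 normalized counts in ctrl and 151655 and 152805 in Zfp276cko libraries. Among them Sox10, a marker of the whole lineage, overlapped between the genotypes at 93.7% of ctrl. The 5 OPC markers summed to 164668 and 123836 in ctrl and 87875 and 85578 in Zfp276cko libraries, and the 6 astrocyte markers to 31737 and 20949 in ctrl and 25415 and 24036 in Zfp276cko libraries. In bulk RNA, fewer cells of a type and less RNA per cell cannot be told apart. The 8 markers of fibroblasts and vessels summed to 6321 in ctrl replicate 1 and to between 387 and 506 in the other 3 libraries, with Cldn5 at 0 counts throughout. The 6 neuron markers summed to 194 in ctrl replicate 1, to 3950 in ctrl replicate 2 and to 1982 and 2131 in the Zfp276cko libraries. The 9 microglia markers summed to 40088 and 20592 in ctrl and 25982 and 26988 in Zfp276cko libraries. The part of these marker differences between the ctrl preparations in the values below was not tested.

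Trp53 (chromosome 11 of mm10, 69580359 to 69591873, plus strand) had 1807 and 1968 normalized counts in the ctrl libraries and 2289 and 2394 in the Zfp276cko libraries. Both Zfp276cko values lay above both ctrl values, and the replicates of each genotype were close. The means were 1888 ± 114 and 2341 ± 73.7 (SD, n = 2 each), or 124% of ctrl. The log2 fold change was 0.31 ± 0.09 (SE) with a 95% interval from 0.06 to 0.57. The unadjusted p was 0.0269 and the adjusted p over all genes 0.258 in edgeR's quasi-likelihood test, and DESeq2 gave an adjusted p of 0.382. With ctrl replicate 1 or 2 left out, the fold change was 0.25 or 0.36 with an adjusted p of 0.0191 or 0.00128. These fits take the lone ctrl library to vary like the Zfp276cko libraries. The processed pseudogene Trp53-ps, which could share reads with Trp53, had 0 counts in all 4 libraries.

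Mdm2 (chromosome 10, 117688875 to 117710758, minus strand), the negative regulator of p53, had 3844 and 3706 normalized counts in ctrl and 4271 and 4117 in Zfp276cko libraries. The genotypes did not overlap, but the gap was small, with a log2 fold change of 0.15 ± 0.09 (95% interval −0.09 to 0.40, adjusted p = 0.490). DESeq2 gave it an adjusted p of 0.800.

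**Figure D1:**
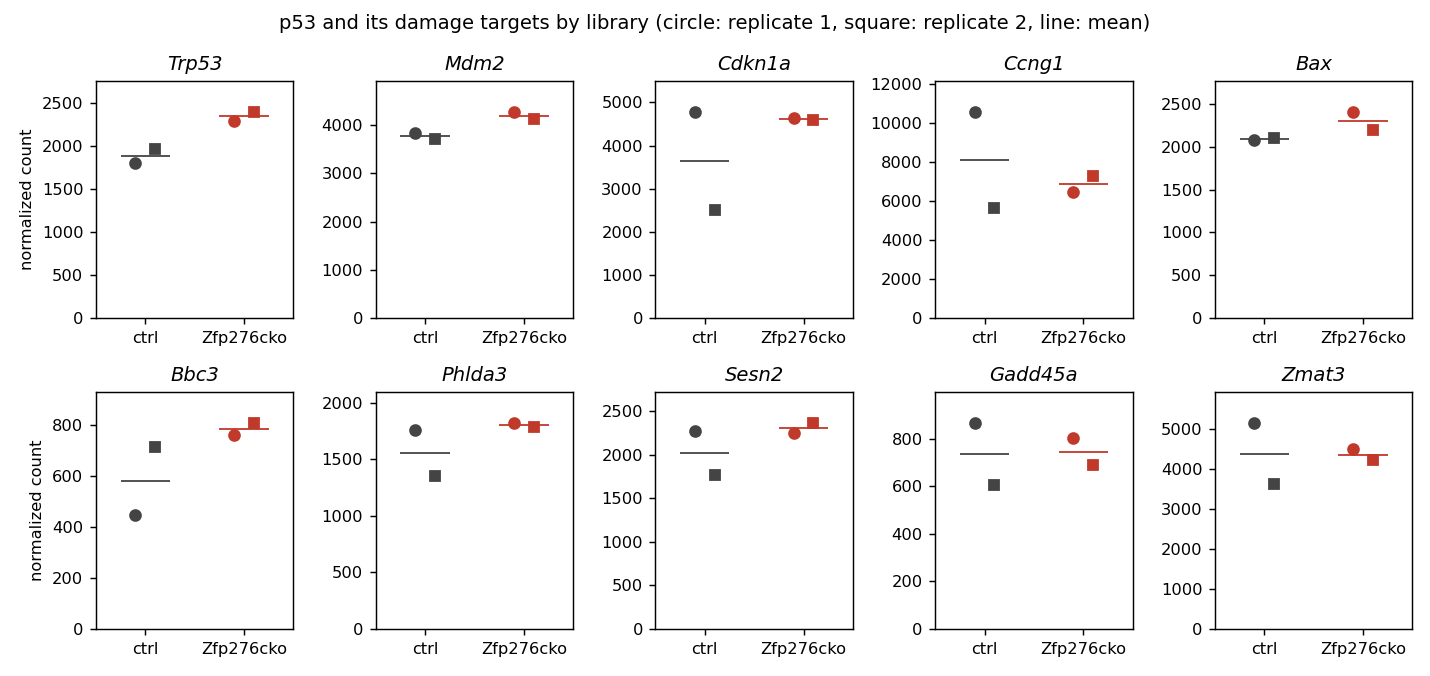
Normalized counts of Trp53 and its 9 targets in each library, 1 panel per gene with its own axis from 0. Circles are replicate 1, squares replicate 2 and lines the genotype means; in Trp53 both red Zfp276cko points (2289 and 2394) lie above both grey ctrl points, while in Cdkn1a and Ccng1 the ctrl points lie far apart.

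Among the genes of growth arrest, Cdkn1a (chromosome 17, 29090976 to 29100727, plus strand), which encodes p21, had 4779 and 2516 normalized counts in ctrl and 4646 and 4593 in Zfp276cko libraries. Only ctrl replicate 2 stood apart, at a level 1.90-fold below ctrl replicate 1. The log2 fold change of 0.34 ± 0.33 had a wide interval from −0.55 to 1.23 (adjusted p = 0.667). The fold change was 0.88 when ctrl replicate 1 was left out and −0.06 when ctrl replicate 2 was. A stretch of 273 nt of its exons (7.68%) lies opposite the annotated gene AC167363.2, which was not analysed here.

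Ccng1 (chromosome 11, 40748552 to 40755311, minus strand) encodes cyclin G1, which takes part in the feedback on p53 through Mdm2. It had 10580 and 5643 normalized counts in ctrl and 6486 and 7286 in Zfp276cko libraries. Here ctrl replicate 1 was the highest library and ctrl replicate 2 the lowest, with both Zfp276cko values between them. The log2 fold change was −0.24 ± 0.33 (95% interval −1.13 to 0.66, adjusted p = 0.774). It turned to 0.29 when ctrl replicate 1 was left out and moved to −0.63 when ctrl replicate 2 was.

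Gadd45a (chromosome 6, 67035096 to 67037457, minus strand), a sensor of growth arrest and DNA damage, had 867 and 605 normalized counts in ctrl and 802 and 689 in Zfp276cko libraries. The Zfp276cko libraries again fell between the ctrl libraries, and the log2 fold change was 0.02 ± 0.22 (95% interval −0.58 to 0.61, adjusted p = 0.978). The annotation places 337 nt of its exons (19.1%) opposite the RNA gene E230016M11Rik, which had between 47.3 and 94.98 normalized counts. Reads of the pair could be told apart only if strand was used in the counting, which the sources used here do not state.

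Among the genes of apoptosis, Bax (chromosome 7, 45461697 to 45466898, minus strand), which opens the outer mitochondrial membrane, had 2074 and 2100 normalized counts in ctrl and 2406 and 2201 in Zfp276cko libraries. The genotypes did not overlap and the log2 fold change was 0.14 ± 0.09 (95% interval −0.11 to 0.39, adjusted p = 0.520). A share of 12.2% of the Bax exons overlaps Gm45808 on the same strand. Bax was nearly the same in both ctrl libraries, which differed 1.01-fold, and its fold change was 0.08 or 0.21 with Zfp276cko replicate 1 or 2 left out.

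Bbc3 (chromosome 7, 16308393 to 16318205, plus strand) encodes Puma, which triggers apoptosis by binding Bcl2 proteins. It had 446 and 712 normalized counts in ctrl and 762 and 808 in Zfp276cko libraries, 136% of ctrl. Both Zfp276cko values were above both ctrl values, but ctrl replicate 2 was nearer to them than to ctrl replicate 1. Bbc3 had the largest log2 fold change of the group, 0.44 ± 0.26 (95% interval −0.26 to 1.13, adjusted p = 0.482). It moved to 0.80 when ctrl replicate 2 was left out and to 0.14 when ctrl replicate 1 was.

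Phlda3 (chromosome 1, 135766119 to 135769136, plus strand), which blocks the survival kinase Akt at the membrane, had 1758 and 1349 normalized counts in ctrl and 1824 and 1784 in Zfp276cko libraries. The gap between ctrl replicate 1 and the lower Zfp276cko library was narrow. The log2 fold change was 0.22 ± 0.15 (95% interval −0.20 to 0.63, adjusted p = 0.560). It was 0.42 with ctrl replicate 1 left out (adjusted p = 0.000624) and 0.02 with ctrl replicate 2 left out.

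Of the genes of stress defence, Sesn2 (chromosome 4, 132492032 to 132510501, minus strand), which encodes the antioxidant and mTORC1 inhibitor sestrin 2, had 2274 and 1769 normalized counts in ctrl and 2252 and 2370 in Zfp276cko libraries. The genotypes overlapped by the small distance between ctrl replicate 1 and Zfp276cko replicate 1, and the log2 fold change was 0.19 ± 0.15 (95% interval −0.21 to 0.60, adjusted p = 0.590). The value for Sesn2 was 0.39 with ctrl replicate 1 left out (adjusted p = 0.000931) and 0.01 with ctrl replicate 2 left out. Zmat3 (chromosome 3, 32334792 to 32366014, minus strand), an RNA-binding zinc finger protein, had 5154 and 3612 normalized counts in ctrl and 4491 and 4209 in Zfp276cko libraries. Its genotype means were nearly equal, at 99.2% of ctrl, with a log2 fold change of −0.01 ± 0.20 (95% interval −0.55 to 0.53, adjusted p = 0.986).

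Genes were called at an adjusted p not above 0.05 with a log2 fold change of 0.6 or more in either direction and 20 or more normalized counts on average. By edgeR's quasi-likelihood test 0 of the 10 members were called, as were 0 genes of all 15766 tested (0%). Before adjustment, at p not above 0.05, Trp53 alone was higher and 0 members were lower, against 8.33% and 7.3% of all genes. DESeq2 called 449 genes higher and 333 lower among those tested, 2.85% and 2.11%, and 0 of the members. Of the same 15766 genes, limma voom called 130 higher and 72 lower, and edgeR's likelihood ratio test 428 and 268. Each called 0 of the members.

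Without overlap between the genotypes, Zfp276cko was above ctrl in 5 of 10 members (Trp53, Mdm2, Bax, Bbc3 and Phlda3) and below ctrl in 0, against 26.8% and 23.7% of all genes. The count was between 4 and 6 under the other scalings and filters tried. The log2 fold change was positive in 8 of 10 members, and the median was 0.17, beside −0.0013 for all genes. Without ctrl replicate 1 all 10 members were above the remaining ctrl library, where 44.4% of all genes were. Without ctrl replicate 2, 5 were above and 4 below it, against 45% and 42.9% of all genes. The medians over members in these comparisons were 0.28 and 0.02. Cdkn1a was called higher in the former (adjusted p = 1.59e-08), and in the latter Bbc3 was called higher (3.55e-06) and Ccng1 lower (1.17e-06), again with the lone ctrl library taken to vary like the Zfp276cko libraries. The same fits called 10.2% of all genes higher and 5.76% lower without ctrl replicate 1, and 10.8% higher and 7.77% lower without ctrl replicate 2, so that 1 and 2 of 10 members are near these shares. The genotype difference of the group thus depended on the ctrl preparation it was measured against.

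**Figure D2:**
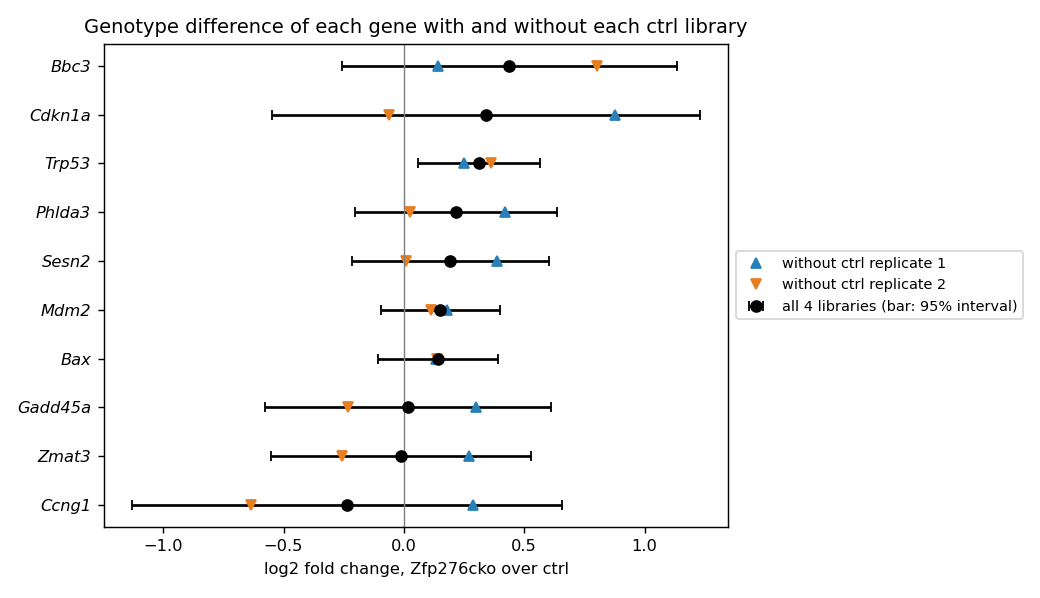
Log2 fold change of Zfp276cko over ctrl for the 10 members. Black points with 95% intervals use all 4 libraries, upward triangles leave out ctrl replicate 1 and downward triangles leave out ctrl replicate 2; the triangles lie together in Trp53, Mdm2 and Bax and on different sides of 0 in Cdkn1a (0.88 and −0.06), Ccng1, Gadd45a and Zmat3.

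The spread between the ctrl preparations was unequal among the members. Cdkn1a, Ccng1, Gadd45a, Zmat3, Phlda3 and Sesn2 were higher in ctrl replicate 1, by 1.90-, 1.87-, 1.43-, 1.43-, 1.30- and 1.29-fold. Bbc3 was the exception with a level 1.60-fold higher in ctrl replicate 2. Trp53, Mdm2 and Bax differed by 1.09-, 1.04- and 1.01-fold. The median difference was 1.37-fold over members and 1.22-fold over 14301 genes with a mean of at least 20 normalized counts. Of these genes, 14.1% differed between the ctrl libraries at least as much as Cdkn1a. The Zfp276cko libraries differed far less, by a median of 1.06-fold both over members and over all genes. The largest difference among members there was 1.16-fold in Gadd45a. Normalized counts over the 10 members added up to 33584 and 23981 in ctrl and 30230 and 30452 in Zfp276cko libraries.

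**Figure D3:**
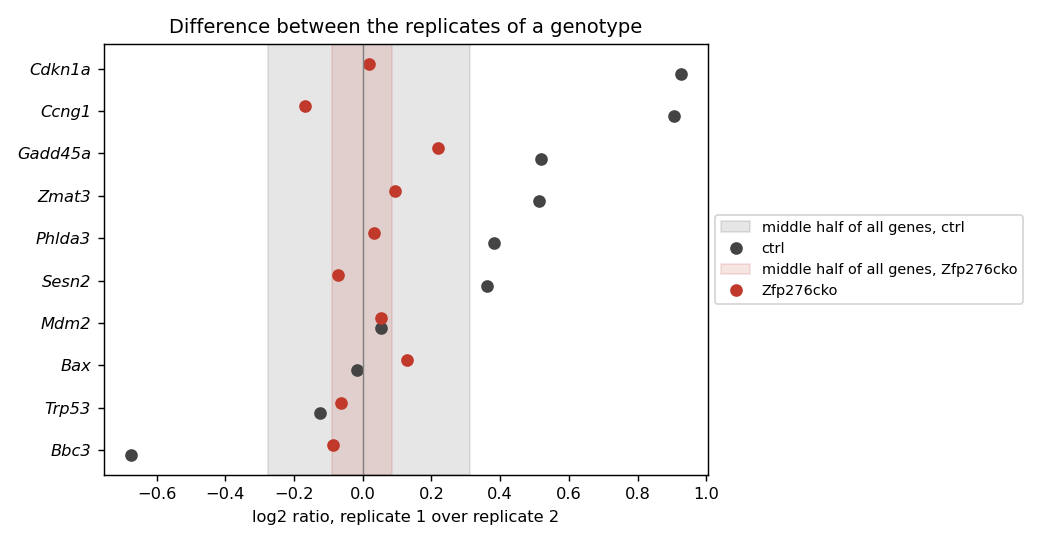
Log2 ratio of replicate 1 over replicate 2 within ctrl (grey points) and within Zfp276cko (red points) for the 10 members. Shaded bands hold the middle 50% of 14301 genes in each genotype; in ctrl, Cdkn1a and Ccng1 (1.90- and 1.87-fold), Gadd45a, Zmat3, Phlda3 and Sesn2 lie outside the grey band on the side of replicate 1 and Bbc3 on the other side, while Trp53, Mdm2 and Bax lie inside it.

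Levels can be compared between genes only per length, for which reads per kilobase of exon per unit of library size (RPKM, with TMM library sizes) were computed. Ccng1 was the most abundant member, with 68.0 to 127 RPKM. Bax followed with 55.7 to 64.6, and the 4 values of Ccng1 and of Bax did not overlap. Cdkn1a with 30.0 to 56.9 and Phlda3 with 36.6 to 49.5 RPKM could not be ordered, and Cdkn1a also overlapped with Bax and with Mdm2. Mdm2 had 30.8 to 35.5 RPKM, without overlap with Phlda3 above it or with Sesn2 below it at 21.5 to 28.8 RPKM. Trp53 had 18.9 to 25.04, Gadd45a 14.5 to 20.8, Zmat3 13.4 to 19.1 and Bbc3 8.89 to 16.1 RPKM. Each of these 4 overlapped with its neighbour in this order, and Trp53 with Sesn2.

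**Figure D4:**
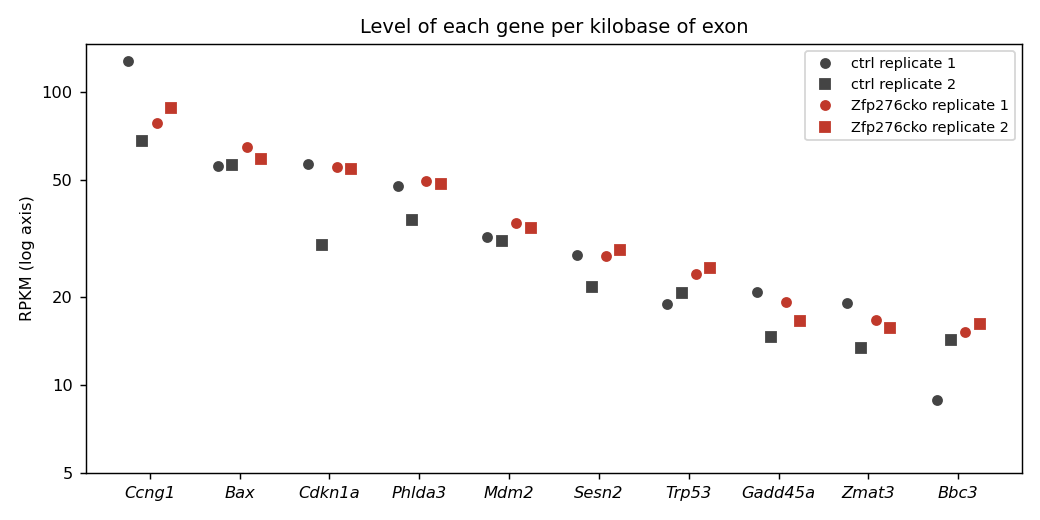
RPKM of each member in the 4 libraries on a log axis, ordered by mean level. Ccng1 lies highest (68.0 to 127) and Bbc3 lowest (8.89 to 16.1), with Bbc3 lowest in ctrl replicate 1, where Ccng1 was highest.

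The wider p53 pathway was described by gene lists. Of 40 further p53 targets, 11 were higher and 2 lower at p not above 0.05 before adjustment, beside 8.33% and 7.3% of all genes. The Zfp276cko libraries were clear of the ctrl libraries on the higher side in 20 genes and on the lower side in 7, beside 26.8% and 23.7% of all genes. Their median log2 fold change was 0.18, and it was 0.35 with ctrl replicate 1 left out and 0.14 with ctrl replicate 2 left out. The quasi-likelihood test called 0 of them after adjustment, and DESeq2 called 5 higher and 1 lower, beside 2.85% and 2.11% of all genes. Those called higher by DESeq2 were Tap1, Gdf15, Pmaip1, Pidd1 and Psrc1, and Zfp365 was called lower. Without ctrl replicate 1, 27 were above and 8 below, beside 44.4% and 42.2% of all genes. Without ctrl replicate 2, 21 were above and 18 below, beside 45% and 42.9%.

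Pidd1, which assembles a caspase-2 complex, had 463 and 440 normalized counts in ctrl and 920 and 801 in Zfp276cko libraries. Its replicates were close and its log2 fold change was 0.93 ± 0.13 (adjusted p = 0.123 in the quasi-likelihood test and 0.000476 in DESeq2). Pmaip1, which encodes the apoptosis trigger Noxa, had 144 and 176 in ctrl and 308 and 404 in Zfp276cko libraries (log2 fold change 1.16 ± 0.23). Apaf1, the core of the apoptosome, had 1009 and 975 in ctrl and 1363 and 1360 in Zfp276cko libraries. Its log2 fold change was 0.46 ± 0.09 (adjusted p = 0.163).

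Gdf15, a secreted stress cytokine, was at a low level in ctrl with 11.9 and 21.4 normalized counts and reached 97.7 and 86.8 in Zfp276cko libraries (log2 fold change 2.46 ± 0.39). Tap1, which transports peptides for MHC class I, had 351 and 222 in ctrl and 1521 and 1457 in Zfp276cko libraries (log2 fold change 2.38 ± 0.25, adjusted p = 0.103). Tap1 is also induced by interferon. The 12 interferon markers summed to 9403 and 4054 normalized counts in ctrl and to 74559 and 72703 in Zfp276cko libraries, all 12 higher in Zfp276cko without overlap and with a median log2 fold change of 3.59. Among them Rsad2 had 258 and 195 in ctrl and 8616 and 8912 in Zfp276cko libraries (adjusted p = 0.0725). The part of interferon in the value of Tap1 was not tested.

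Among the further targets with lower values, Zfp365, a DNA damage response gene expressed in brain, had 8279 and 5982 normalized counts in ctrl and 4054 and 4347 in Zfp276cko libraries. The log2 fold change was −0.76 ± 0.19 (adjusted p = 0.207 in the quasi-likelihood test and 0.0178 in DESeq2). Thbs1, an extracellular matrix protein, had 1314 in ctrl replicate 1 and between 216 and 253 in the other 3 libraries. Ctrl replicate 1 was also the library with the high fibroblast and vessel markers, whose part in the Thbs1 values was not tested. Gls2, a mitochondrial glutaminase, was low in all libraries, with 27.3 and 27.01 in ctrl and 17.2 and 9.45 in Zfp276cko libraries.

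**Figure D5:**
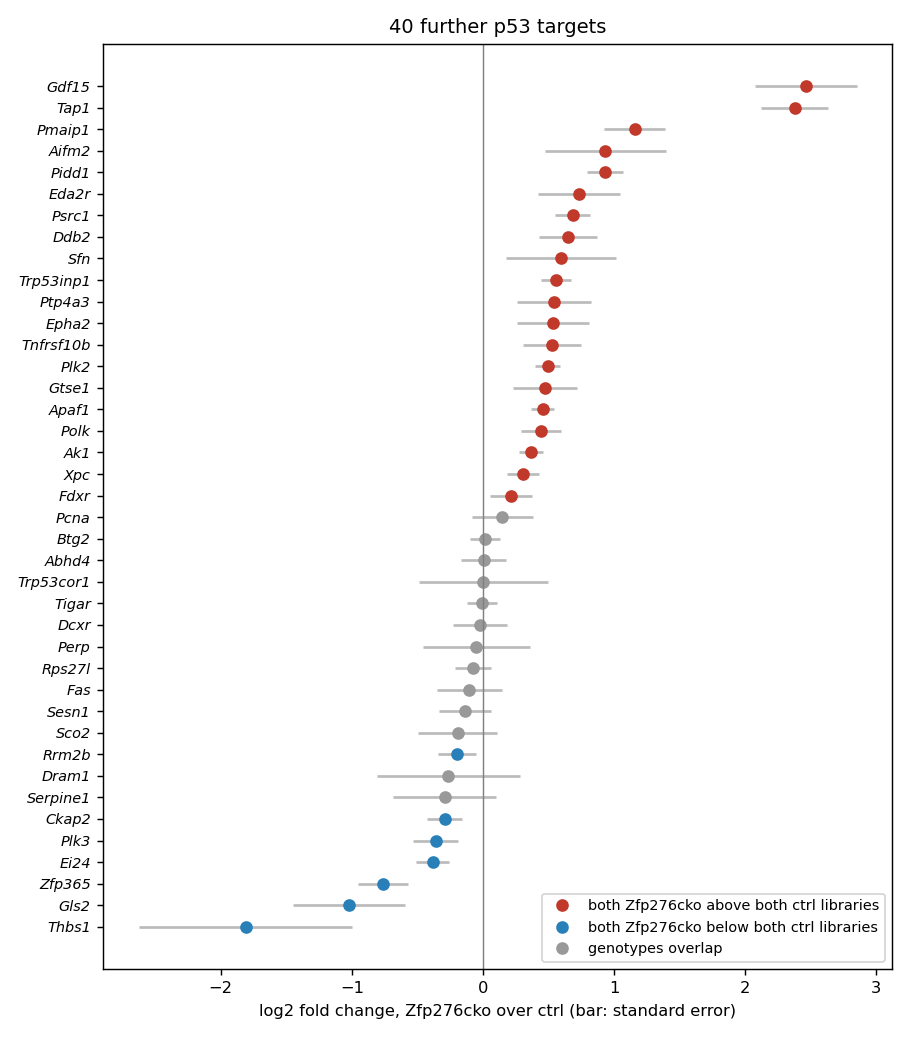
Log2 fold change of Zfp276cko over ctrl with its standard error for 40 further p53 targets, ordered by value. Red points are genes whose Zfp276cko libraries both lie above the ctrl libraries (20 genes), blue points below (7 genes), and in grey points the genotypes overlap (13 genes); Gdf15 (2.46) and Tap1 (2.38) stand at the upper end and Thbs1 (−1.81) at the lower end.

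Of 20 regulators of p53, 18 were tested, while Trp63 and Trp73, the relatives of Trp53, reached at most 1 and 5 counts and were not. Their median log2 fold change was −0.0012. At p not above 0.05 before adjustment, 1 was higher and 1 lower, beside 8.33% and 7.3% of all genes. The higher one was Chek2, a kinase that phosphorylates p53 after DNA breaks, with 300 and 308 normalized counts in ctrl and 503 and 524 in Zfp276cko libraries. Its log2 fold change was 0.75 ± 0.13 (adjusted p = 0.157 in the quasi-likelihood test and 0.0126 in DESeq2).

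The lower one was Hipk2, a kinase that phosphorylates p53 for apoptosis, with 10210 and 11402 normalized counts in ctrl and 5792 and 5735 in Zfp276cko libraries. Its log2 fold change was −0.91 ± 0.11, with an adjusted p of 0.117 in the quasi-likelihood test and 7.34e-08 in DESeq2. Mdm4, the partner of Mdm2, had 5017 and 4393 in ctrl and 5372 and 5306 in Zfp276cko libraries (log2 fold change 0.18 ± 0.11). Among the 18 regulators, 4 had both Zfp276cko libraries above ctrl and 6 below, beside 26.8% and 23.7% of all genes. These numbers were 9 above without ctrl replicate 2, beside 45% of all genes, and 11 below without ctrl replicate 1, beside 42.2%.

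Within the Bcl2 family, to which Bax belongs, 2 of 12 genes were higher and 0 lower at p not above 0.05 before adjustment, beside 8.33% and 7.3% of all genes. The median log2 fold change was 0.07, and it was 0.14 with ctrl replicate 2 and 0.12 with Zfp276cko replicate 1 left out. Bcl2l11, which encodes the apoptosis trigger Bim, had 414 and 401 normalized counts in ctrl and 734 and 701 in Zfp276cko libraries (log2 fold change 0.82 ± 0.12, adjusted p = 0.125, and 0.0016 in DESeq2). Bid, which links death receptors to mitochondria, had 327 and 212 in ctrl and 468 and 451 in Zfp276cko libraries (0.77 ± 0.26). Bak1, the close relative of Bax, had 1624 and 1597 in ctrl and 1800 and 1813 in Zfp276cko libraries, a log2 fold change of 0.17 ± 0.08. Without overlap, 4 genes were higher and 1 lower in Zfp276cko, beside 26.8% and 23.7% of all genes. With ctrl replicate 1 or 2 left out, 7 were above in both cases and 3 or 4 were below, where 44.4% or 45% of all genes were above and 42.2% or 42.9% below.

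Of 15 further Cdk inhibitors and paralogs of members, 14 were tested, and Phlda2 had at most 3 counts. Gadd45b, a paralog of Gadd45a that is also induced by inflammatory signals, had 253 and 374 normalized counts in ctrl and 607 and 626 in Zfp276cko libraries. Its log2 fold change was 0.98 ± 0.23 (adjusted p = 0.195 in the quasi-likelihood test and 0.0170 in DESeq2), beside 0.02 for Gadd45a itself. Sesn3, a paralog of Sesn2, had 11122 and 9498 in ctrl and 8125 and 8158 in Zfp276cko libraries (−0.34 ± 0.13). Differences between paralogs were not tested. The median log2 fold change of the list was 0.05, and it was −0.10 without ctrl replicate 1. Of the list 4 genes were above ctrl in both Zfp276cko libraries (9 without ctrl replicate 2) and 3 below (8 without ctrl replicate 1). Of all genes 26.8% were above (45% without ctrl replicate 2) and 23.7% below (42.2% without ctrl replicate 1).

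Cell cycle genes that p53 represses through p21 and the DREAM complex are expected low where p53 is active, as background. Of 19 such genes, 2 were higher and 0 lower at p not above 0.05 before adjustment, beside 8.33% and 7.3% of all genes. The 2 were Ccnb2, a mitotic cyclin, and E2f1, a transcription factor of S phase. Ccnb2 had 241 and 294 normalized counts in ctrl and 445 and 438 in Zfp276cko libraries (log2 fold change 0.72 ± 0.17, adjusted p = 0.195). The sum of the list was 16047 and 25787 in ctrl and 23927 and 24012 in Zfp276cko libraries, lowest in ctrl replicate 1. Cdkn1a had 4779 and 2516 normalized counts in ctrl and 4646 and 4593 in Zfp276cko libraries. A relation of the list to Cdkn1a was not tested. The median log2 fold change was 0.21 with all libraries and −0.05 without ctrl replicate 1. Of the 19 genes 8 were above ctrl in both Zfp276cko libraries and 0 below, beside 26.8% and 23.7% of all genes. Without ctrl replicate 1, 8 were above and 10 below, beside 44.4% and 42.2% of all genes. Without ctrl replicate 2, 19 were above, beside 45%.

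Sesn2 and Gdf15 are also targets of Atf4 and Chop, transcription factors of the integrated stress response. A list for comparison, here called Atf4 and Chop targets, held 12 other genes, among them the genes of both factors, Atf4 and Ddit3. At p not above 0.05 before adjustment, 5 were higher and 2 lower, beside 8.33% and 7.3% of all genes. DESeq2 called the same numbers, beside 2.85% and 2.11% of all genes. It called Ddit3, Atf3, Cebpb, Ppp1r15a and Slc7a11 higher and Psat1 and Vldlr lower. Ddit3, which encodes Chop, had 374 and 367 normalized counts in ctrl and 1029 and 963 in Zfp276cko libraries. Its log2 fold change was 1.43 ± 0.12 (adjusted p = 0.0962 in the quasi-likelihood test and 4.53e-11 in DESeq2).

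Atf4 itself overlapped, with 7663 and 5442 in ctrl and 6262 and 6516 in Zfp276cko libraries. Its targets Asns and Trib3 differed widely between the ctrl preparations, with 4836 and 1562 normalized counts of Asns and 515 and 82.1 of Trib3. Both had their Zfp276cko values between the ctrl values, as did Cdkn1a, Ccng1, Gadd45a and Zmat3. The genotypes overlapped in 7804 of all 15766 genes tested, and a relation of these members to Asns and Trib3 was not tested. The median of the list was 0.38 with all libraries and −0.25 without ctrl replicate 2. The number above ctrl in both Zfp276cko libraries was 5, or 10 without ctrl replicate 1, and the number below was 2, or 7 without ctrl replicate 2. The shares of all genes were 26.8% and 44.4% above and 23.7% and 42.9% below.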

How the data were processed

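The 10 genes and all lists were chosen with earlier results of these data known. The authors mapped RNA-Seq reads to mm10 with STAR 2.5.4a and deposited raw counts per gene symbol. The study's methods name HTSeq for the counting and the submitters' processing notes name featureCounts 1.5.1, and the strand setting is not given in the sources used here. Counts of 4 libraries (21068322 to 26599809 reads) were read as deposited, without normalization by the authors. This depth gave every member at least 376 counts per library.

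Genes were kept with edgeR's filterByExpr (15766 genes, 99.9% of counts) and TMM-normalized, and normalized counts were scaled to the mean library. For the comparison of genotypes, edgeR's quasi-likelihood test (edgeR 4.0.16, R 4.3.3) was used with Benjamini-Hochberg adjustment over all tested genes. A run on simulated counts gave all libraries the same spread, unlike the libraries here, and cannot show how the test performs on them. Intervals are 95% and rest on a median of 4.23 degrees of freedom. An exact permutation test of 2 against 2 libraries cannot go below p = 0.333. Alternatives were DESeq2 1.42.0, limma 3.58.1 (voom with quality weights), edgeR's likelihood ratio test, other scaling and filters, a replicate block, and fits without each library. DESeq2 ran with default settings, chosen after its counts with another filtering level were also seen.

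Named genes are the members, Zfp276, up to 4 genes per list and direction with the smallest unadjusted p at a mean of at least 20 normalized counts, and genes of counts of 5 or fewer. Atf4, Asns, Trib3 and Bak1 beside Bax were picked with their values known. RPKM used union exon lengths of the GENCODE annotation of mm10.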

Additional observations from a re-analysis of the deposited data

How the results depend on the processing

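With 2 libraries per genotype, and ctrl libraries further apart than Zfp276cko libraries, the choice of ctrl library mattered most. Of 130 alternative fold changes of members, 11 turned direction and 11 reached an adjusted p of at most 0.05. The latter all came from fits without a ctrl library, which assume that the lone ctrl library varies like the Zfp276cko libraries. In fits without 1 library, Zfp276cko was above ctrl without overlap in 5 to 10 members and below in 0 to 4. Of all genes, 32.9% to 45% were above and 29.5% to 42.9% below in these fits. The leave-one-out counts of genes called ranged from 0 to 1792 higher and from 0 to 1286 lower. With 1 library left out, fold changes ranged from −0.063 to 0.88 in Cdkn1a, from −0.63 to 0.29 in Ccng1, from −0.23 to 0.30 in Gadd45a (−0.09 without Zfp276cko replicate 1) and from −0.26 to 0.27 in Zmat3 (0.04 without Zfp276cko replicate 2), with the ends set by the fits without a ctrl library. Zmat3, at −0.011 with all libraries, was 0.012 with no filter on low counts, 0.0020 with at least 10 counts in every library, 0.012 in voom and 0.011 in the replicate block as numbered or crossed. Medians ranged from −0.11 to 0.041 in the p53 regulators, from −0.10 to 0.21 in the Cdk inhibitors and paralogs, from −0.048 to 0.62 in the cell cycle genes from −0.25 to 0.91 in the Atf4 and Chop targets, from 0.14 to 0.35 in the further p53 targets and from 0.08 to 0.14 in the Bcl2 family. Over all genes, 0 higher and 0 lower became 8 higher with no filter, 449 and 338 in DESeq2, 445 and 335 in DESeq2 with filtering set for 0.05 (added after the data were seen), 130 and 72 in voom, 428 and 268 in the likelihood ratio test, and 806 and 476 at an unadjusted p. The 1 member at an unadjusted p, Trp53, became 0 in DESeq2, voom and the likelihood ratio test. The labels do not state whether replicate numbers pair the samples. Same-numbered libraries showed no shared deviation (r = −7.11e-05 across genes), which cannot settle a pairing with 2 libraries per genotype. The replicate block, as numbered or with the Zfp276cko numbers crossed, gave 0 genes called and 0 members at an unadjusted p. The cause of these shifts was not tested.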
